A study of Mus musculus with 80 samples.

Results

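The 8 libraries described here, of 80 in the series, measured what a catalytically inactive copy of the m6A methyltransferase METTL3 leaves uncorrected in mouse ES cells when the endogenous enzyme is removed and Xist is not induced. They were chosen by their labels as the XX cells with a GFP-METTL3 transgene and no doxycycline (Dox). Cells of Cast x 129S background carry METTL3_FKBP12-F36V, endogenous METTL3 with a degron tag at its C terminus (H5 clone), together with a TetOn promoter in place of that of Xist on the Cast X chromosome, and all 4 groups share these alleles. Into the H5 clone a transgene was placed at the Rosa26 locus, whose promoter is active throughout, and it encodes GFP-METTL3 either as wild type (WT, clone WT_P2B3) or as D395A (clone D395A_1F). Each transgene is thus represented by 1 clone, and per the study's table of lines both clones have kept both X chromosomes. Each clone was sequenced untreated and with dTAG-13, the small molecule that sends the tagged protein to the proteasome and spares the transgene product, which lacks the degron, in 2 replicates named Rep 1 and Rep 2. For dTAG alone the labels disagree on the time, with 26 h in the titles and 2 h in another field. The former is taken here. The comparison asks which transcripts move on loss of endogenous METTL3 when the transgene cannot methylate, and stay in place when it can.

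N6-methyladenosine (m6A) is the most common internal mark of mRNA. METTL3 transfers the methyl group from S-adenosylmethionine to adenosines within a short consensus whose best known form is GGACT, METTL14 supports RNA binding in the heterodimer, and WTAP, VIRMA, ZC3H13, CBLL1 and RBM15 form the regulatory part of the writer. Methylation is co-transcriptional, and nuclear and cytoplasmic reader proteins then steer splicing, export and decay. In mouse ES cells m6A is best known for marking transcripts of pluripotency regulators for turnover. The assay, ChrRNA-seq, sequences RNA that stays with chromatin, so a level here is that of nascent and chromatin-retained transcripts, introns included, and not that of mature mRNA.

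The substitution lies in the catalytic pocket. In the reference genome (RefSeq, GRCm38.p6, the assembly also called mm10) Mettl3 is on the minus strand of chromosome 14, and its RefSeq coding sequence has 580 codons in 11 coding exons. The aspartate codon that D395A replaces lies in coding exon 6, at chr14:52297590-52297592, and it opens the aspartate, proline, proline, tryptophan motif of the active site. The 30 bases from chr14:52297575-52297604 are shown because this codon is what sets the transgenes apart. They are the reference sequence of the endogenous gene, not the transgene's own sequence, and run 5′ to 3′ on the coding strand, with the codon that D395A replaces by alanine in capitals.
Mettl3, around the replaced codon: gttgtgatggctGACccaccttgggatatt

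All 8 libraries were those of mouse ES cells by their defining markers. Of 8 markers, 7 were above 0 in every library, and the lowest value over the libraries was 2.78 CPM (reads of a gene per M reads counted) for Utf1, 4.76 for Dppa5a, 29.5 for Pou5f1, 42.4 for Nanog, 111 for Tdgf1, 240.1 for Zfp42 and 661 for Esrrb. The remaining marker, Sox2, was listed at 0 in all 8 and lies on the same strand within the span of Sox2ot. Cells were grown on inactivated fibroblast feeders. Of 23 fibroblast markers, 9 stayed below 1 CPM in every library, among them Col1a2, Col3a1, Dcn, Lum and Postn, and Lum was at 0 in 7 of 8. The other fibroblast markers include Fn1, at 382 to 764 CPM. The summed level of the 22 markers other than Fn1 was 35.0 to 37.3 CPM in untreated and 63.8 to 70.0 CPM in dTAG-treated D395A cells, against 55.6 to 62.0 and 53.7 to 67.4 CPM in the WT line. Of the 9 fibroblast markers tested, 3 were higher with D395A and kept by WT (Col5a1, Loxl1 and Mmp2, log2 changes 0.70, 0.69 and 0.85) and Fn1 was lower (-0.51). Of all genes tested, 7.72% were higher and 8.37% lower by that rule, which is given below. The part of feeder RNA in the changes below was not tested, and in bulk RNA fewer cells of a type and less RNA per cell cannot be told apart. Depth, recovered from the CPM steps, ran from 9.88 to 30.6 M reads, with the shallowest library in untreated WT Rep 2 (1 read was worth 0.101 CPM there). Genes under 3000 bp took 0.524 to 1.07% of the CPM.

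Mettl3 RNA itself cannot serve as a check of the depletion, since dTAG acts on the protein. How far transgene reads enter its count is not known, as the origin of the transgene cDNA is not given in the sources used here. Its level, after each library was scaled by its median ratio over autosomal genes (scaled CPM), was 43.2 and 49.9 untreated and 43.8 and 47.5 with dTAG in the D395A line, against 42.4 and 33.6 and then 38.0 and 33.9 in the WT line, where values are given as Rep 1 and Rep 2 and, here and below, the untreated pair comes first. Within each line the untreated and dTAG-treated ranges overlapped. Every D395A library was above every WT library, and this difference between lines was not tested. The log2 change with dTAG was -0.02 ± 0.09 (adjusted p = 0.85) in the D395A line and -0.07 ± 0.09 in the WT line, where errors are standard errors of the limma fit throughout and every log2 change is on the scale of log2(scaled CPM + 1).

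With dTAG the chromatin RNA of the D395A line changed broadly, and no gene passed the test in the WT line. Of 13364 genes whose mean reached 1 CPM, 2355 (17.6%) were higher and 2534 (19%) lower with dTAG in D395A cells, 4889 in all (36.6%), at an adjusted p under 0.05 (limma, Benjamini-Hochberg over all genes tested, each line's Rep as a block). In WT cells the numbers were 0 (0%) in both directions, with 354 genes at an unadjusted p under 0.05 and a lowest adjusted p of 0.999. Those 354 are fewer than the share of 0.05 that chance alone would bring. The fit pooled the spread over all groups of both lines, and whether that spread was too wide for WT cells was not tested. The median absolute log2 change was 0.215 in D395A and 0.0645 in WT cells, and 95% of genes changed by less than 0.807 and 0.258, respectively. A test of the difference between both changes called 1050 genes (7.86%) with a more positive and 1127 (8.43%) with a more negative change in D395A cells.

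Genes were counted as changed with D395A and kept by WT where the D395A change and the difference both passed in the same direction and the WT change did not pass. These were 1032 higher genes (7.72% of those tested) and 1119 lower genes (8.37%), 2151 in all (16.1%). The higher genes had a median log2 change of 0.74 (1.67-fold) in D395A and 0.02 in WT cells, and the lower genes -0.51 (1.42-fold) and -0.01. A change of 2-fold or more was seen for 190 of the higher and 107 of the lower genes. A WT change that misses the threshold does not show that the gene stayed in place, so its interval was read as well. The 95% interval of the WT change lay within 1.5-fold either way for 967 of the 1032 higher genes (93.7%) and 1099 of the 1119 lower genes (98.2%). That margin is wider than the median D395A change of the lower genes (1.42-fold), so it cannot show that these stayed in place. The rule that chose the genes also used the WT change. In the libraries themselves both D395A levels with dTAG lay above both untreated levels for 1006 of the higher genes, against 29.3% of all tested genes, and below them for 1095 of the lower genes, against 30.6%. The rule used these libraries, so this is a description. The last gene inside the threshold of the difference was Ttc17 (adjusted p = 0.0499) and the first outside it was Nudt3 (0.0501).

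**Figure D1:**
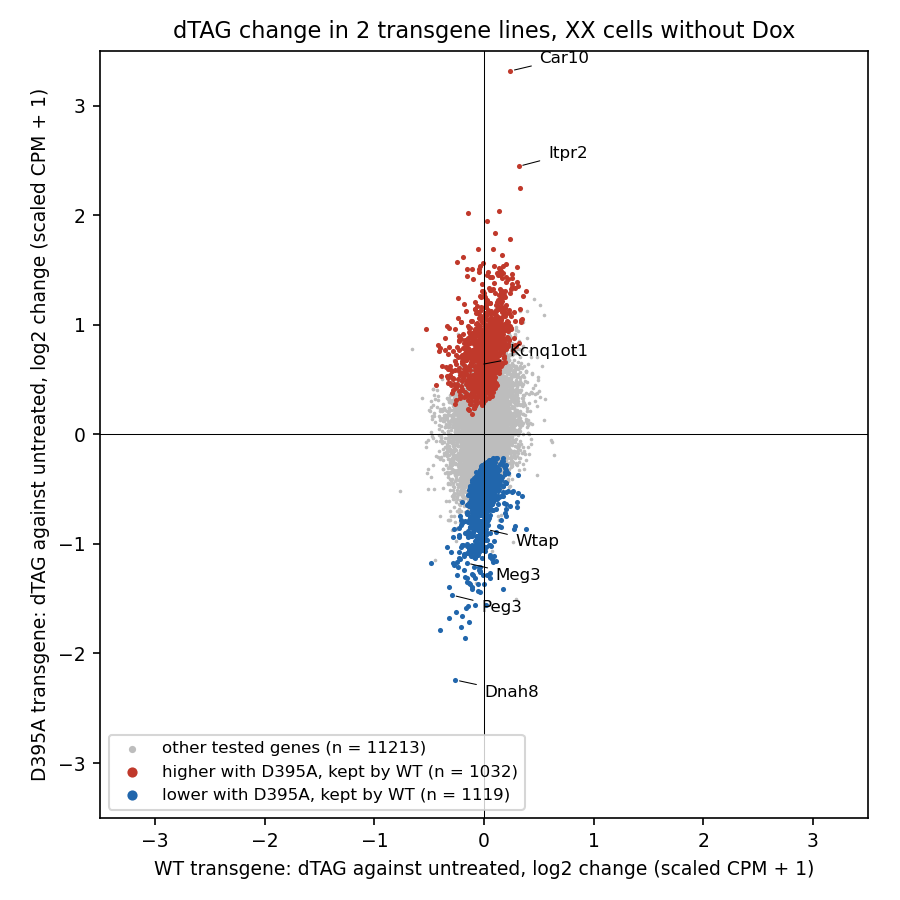
Each point is 1 of 13364 genes, with its log2 change with dTAG in the WT transgene line on the x axis and in the D395A line on the y axis, both on the scale of log2(scaled CPM + 1). The 1032 red and 1119 blue genes changed with D395A and were kept by WT, and the cloud is tall and narrow, with 95% of WT changes within 0.258 of 0.

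The split between higher and lower genes rests on the scaling. In the CPM as deposited the median gene moved by 0.12 with dTAG in the D395A line and by 0.01 in the WT line, and 3746 genes were then higher and 1269 lower in D395A cells, 74.7% of the calls against 48.2% after scaling. Changes are therefore given relative to the median gene. The counts also rest on pairing dTAG with untreated wells of the same Rep. With no replicate block 370 genes were higher and 357 lower in D395A cells and 5 genes met the rule for WT-kept genes, and with 1 Rep block shared by both lines 72 did. Leaving out the D395A Rep 1, D395A Rep 2 or WT Rep 2 libraries left 1074, 734 and 967 WT-kept genes.

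Among higher genes the largest change was in Car10 (chr11:93099289-93601751 on mm10), a catalytically inactive member of the carbonic anhydrase family. Car10 was at 4.71 and 5.98 untreated and 45.0 and 85.0 with dTAG in the D395A line, against 4.99 and 14.7 and then 8.02 and 13.5 in the WT line. Both treated D395A libraries stood far above the other 6. The log2 change was 3.32 ± 0.20 (adjusted p = 1.6e-08) in D395A and 0.24 ± 0.20 in WT cells, a 9.96-fold rise in the former, and the difference was 3.07 ± 0.29 (adjusted p = 1.1e-05). Itpr2, an IP3 receptor that releases calcium from the endoplasmic reticulum, was at 5.77 and 6.85 untreated and 30.9 and 48.4 with dTAG in the D395A line, against 6.33 and 11.8 and then 7.62 and 15.9 in the WT line. Its change was 2.45 ± 0.17 (adjusted p = 5.7e-08) and its WT change 0.32 ± 0.17, and both treated D395A libraries were above the other 6. Pdzrn4, a PDZ and RING domain protein, was at 19.6 and 10.9 untreated and 70.1 and 57.1 with dTAG in the D395A line, against 28.3 and 70.6 and then 32.5 and 74.3 in the WT line. Here the WT libraries of the pair of Reps stood apart from each other at either treatment, and the untreated D395A level was lower than in any of them, so dTAG brought the D395A line up into the WT range.

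Adamts3, a protease that trims procollagen, was at 7.67 and 11.0 untreated and 31.4 and 46.7 with dTAG in the D395A line, against 15.6 and 25.7 and then 17.6 and 23.7 in the WT line. It began below all 4 WT libraries and ended above them. Its change was 1.95 ± 0.12 (adjusted p = 1.6e-08), a 3.85-fold rise. Megf11, a transmembrane protein with EGF-like repeats, was at 50.8 and 32.4 untreated and 178 and 114 with dTAG in the D395A line, against 45.6 and 26.0 and then 50.4 and 33.1 in the WT line. Both treated D395A libraries exceeded all others, and the change was 1.78 ± 0.17 (adjusted p = 1.3e-06). Cadps2, which takes part in exocytosis of dense-core vesicles, was the most abundant of the 15 higher genes, at 81.1 and 49.5 untreated and 224 and 177 with dTAG in the D395A line, against 42.2 and 93.1 and then 48.3 and 102 in the WT line. Its change was 1.63 ± 0.13 (adjusted p = 1.8e-07) in D395A and 0.16 ± 0.13 in WT cells. Pof1b, an X-linked actin-binding protein, rose from 3.74 and 3.998 to 13.5 and 13.3 scaled CPM, while the 4 WT libraries were between 9.36 and 12.7.

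Other higher genes chosen by the rule were the patched-domain gene Ptchd4 (log2 change 1.69 in D395A, 0.08 in WT cells), the adenylate kinase Ak5 (1.55, 0.20), the RING and SH3 domain protein Sh3rf2 (1.54, -0.04), the transmembrane channel-like gene Tmc7 (1.53, 0.10), the lncRNA 6030407O03Rik (1.57, -0.25), the predicted gene Gm5622 (2.25, 0.33) and Ugt1a10 (1.84, 0.10). Ugt1a10, a UDP-glucuronosyltransferase, shares its last exons with the other Ugt1a genes, so reads could be divided among them. Levels of the lncRNA 6030407O03Rik differed between WT Reps, at 32.2 and 6.95 and then 28.3 and 5.40 in the WT line, and the treated D395A level of 7.54 and 8.63 lay within that range.

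Among lower genes the largest change was in Dnah8 (chr17:30626935-30875264 on mm10), a dynein heavy chain of the sperm tail. Dnah8 was at 68.8 and 109.9 untreated and 14.8 and 21.0 with dTAG in the D395A line, against 161 and 383 and then 137 and 313 in the WT line. Treated D395A libraries were the lowest of all 8, and the untreated ones were also below all 4 WT libraries. The change was -2.24 ± 0.11 (adjusted p = 3.9e-09), 4.73-fold down, against -0.26 ± 0.11 in WT cells, and the difference was -1.98 ± 0.16 (adjusted p = 3.7e-06). Lgals3, which encodes the galactose-binding protein galectin-3, was at 26.7 and 23.9 untreated and 7.21 and 5.39 with dTAG in the D395A line, against 22.7 and 22.1 and then 18.2 and 21.6 in the WT line. Both treated WT libraries were below the untreated WT pair, and the 6 libraries other than the treated D395A pair were between 18.2 and 26.7. In the D395A line the change was -1.86 ± 0.19 (adjusted p = 2.6e-06), and it was -0.17 ± 0.19 in WT cells. Irak3, an inhibitor of Toll-like receptor signalling, was at 116 and 124 untreated and 38.5 and 39.9 with dTAG in the D395A line, against 60.3 and 92.7 and then 60.3 and 74.0 in the WT line. The treated pair was the lowest and the untreated pair the highest of the 8, and the change was -1.59 ± 0.12 (adjusted p = 1.1e-07).

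Peg3, a paternally expressed zinc finger gene, had the lowest p-value of all genes in the D395A contrast and also in the WT contrast. It was at 268 and 328 untreated and 93.9 and 121 with dTAG in the D395A line, against 196 and 266 and then 172 and 202 in the WT line. The change was -1.47 ± 0.07 (adjusted p = 1.7e-09) in D395A and -0.29 ± 0.07 in WT cells (unadjusted p = 0.0005, adjusted p = 0.999), so the WT line moved the same way by a smaller amount, and the difference was -1.18 ± 0.10 (adjusted p = 3.7e-06). Erbb4, a receptor tyrosine kinase for neuregulins, was at 95.5 and 64.8 untreated and 31.8 and 21.4 with dTAG in the D395A line, against 33.8 and 98.4 and then 35.1 and 96.6 in the WT line. WT Reps differed from each other by more than dTAG moved either, and the D395A change was -1.55 ± 0.11 (adjusted p = 7.3e-08). Ebf1, a transcription factor best known from B cells, was the most abundant of the named lower genes, at 180.5 and 379 untreated and 74.6 and 124 with dTAG in the D395A line, against 378 and 543 and then 387 and 501 in the WT line, with a change of -1.44 ± 0.12 (adjusted p = 3.1e-07). Crebrf, a regulator of CREB3, fell from 139 and 139.6 to 48.5 and 55.4 scaled CPM, with the 4 WT libraries between 124 and 143.

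Further lower genes were the adhesion molecule Cadm2 (log2 change -1.56 in D395A, -0.08 in WT cells), the secreted olfactomedin-like Olfml1 (-1.79, -0.40), the trypsin inhibitor Spink3 (-1.76, -0.21), the transcription factor Rfx4 (-1.67, -0.32), the muscle chloride channel Clcn1 (-1.66, -0.20), Cnpy1 (-1.62, -0.26), the intestinal surface antigen Gpa33 (-1.56, -0.15) and the zinc finger gene Zmat4 (-1.43, -0.06). Untreated D395A cells held more Spink3 and Rfx4 RNA than any WT library, so their fall with dTAG ran towards the WT level.

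**Figure D2:**
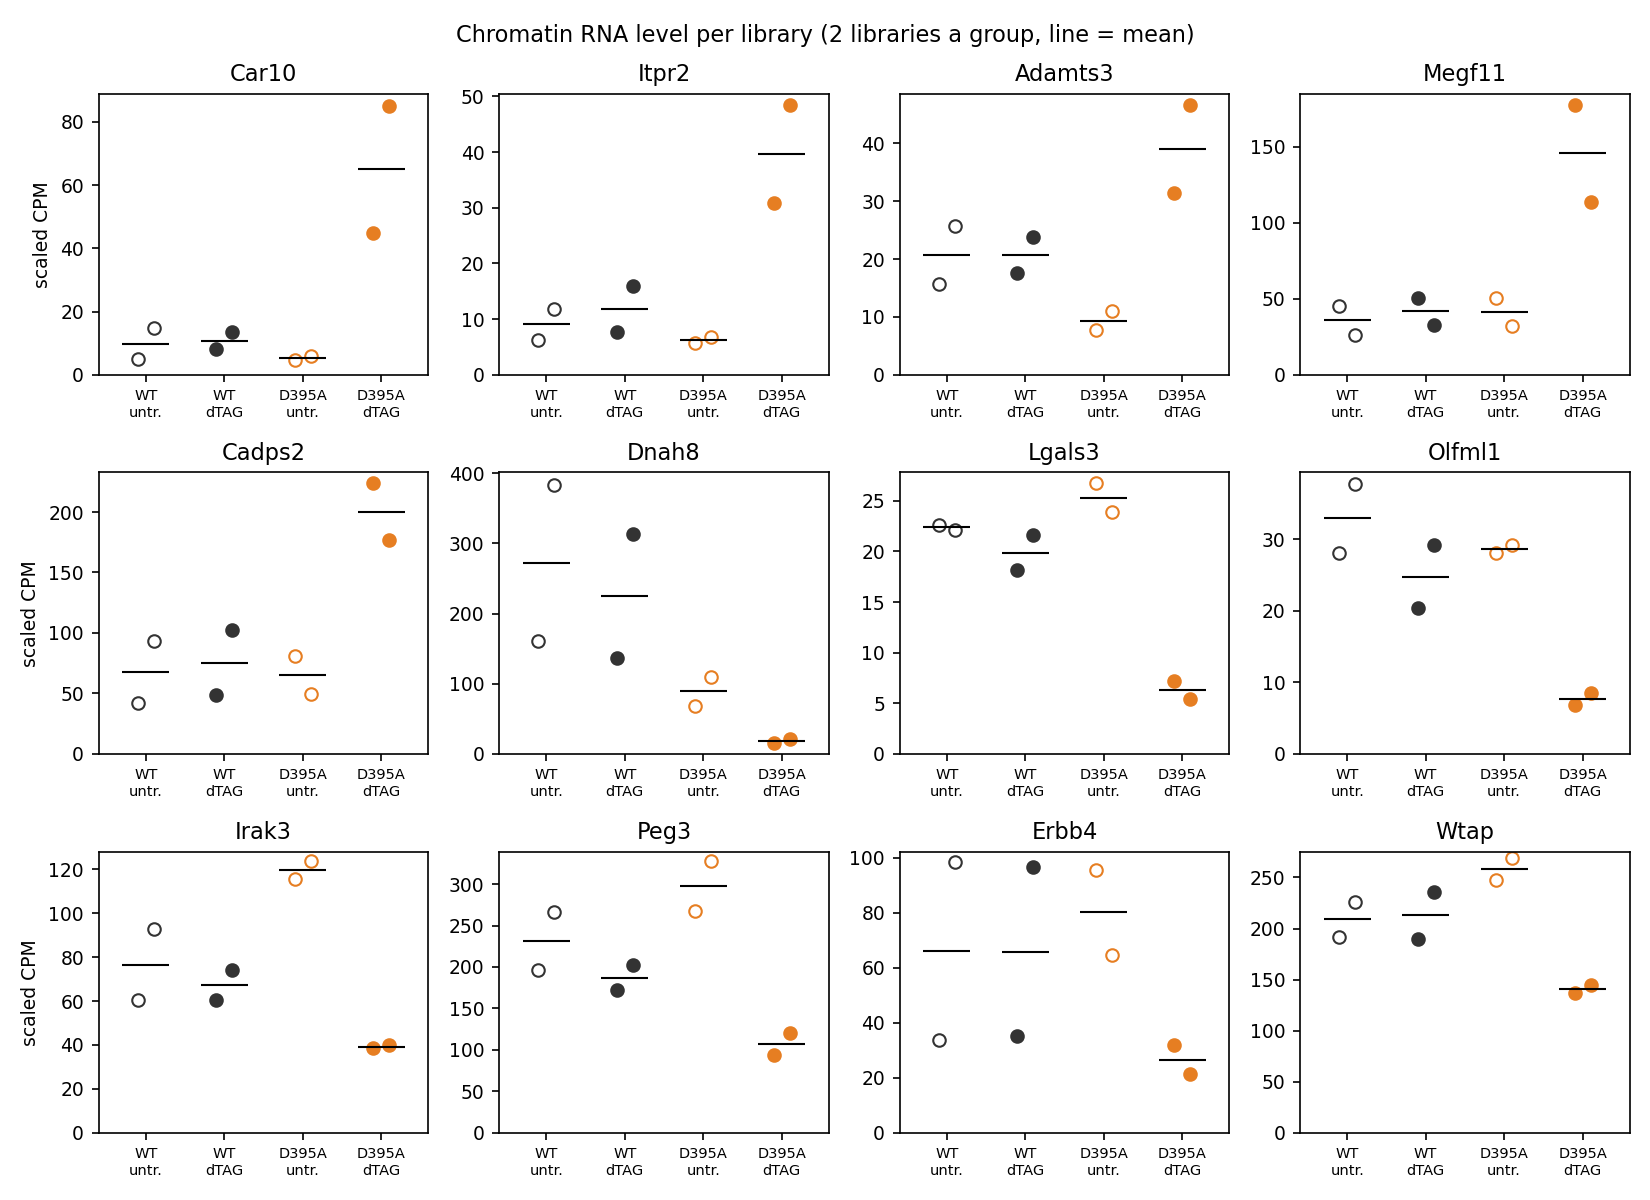
Scaled CPM (y axis, from 0) of 12 genes in each of the 8 libraries, with open points for untreated and filled points for dTAG-treated cells, black for the WT and orange for the D395A transgene, and a line at the mean of 2 libraries. In every panel the filled orange points stand apart from the open orange ones, and the filled and open black points overlap in range in all panels but that of Lgals3, where both treated WT libraries are below the untreated ones.

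The smallest p-values of the WT contrast, none of which passed after adjustment, were read next. Beside Peg3 and Olfml1 they belonged to Hirip3, a partner of the histone chaperone HIRA (WT log2 change -0.52 ± 0.13, D395A change -0.35), the NEDD8-conjugating enzyme Ube2m (-0.44 ± 0.12, -0.20) and the chemokine receptor Ccr4 (0.55 ± 0.15, 1.09). Ccr4 was at 2.47 and 2.39 untreated and 6.20 and 6.41 with dTAG in the D395A line, against 1.82 and 2.35 and then 3.24 and 3.77 in the WT line. Both treated libraries were above both untreated ones in either line. Peg3 and Olfml1 changed in the same direction in the D395A line and by more (adjusted p of the difference 3.7e-06 and 4.1e-05), and for Ccr4 the D395A change of 1.09 passed while its difference from WT did not (0.083). For Hirip3 and Ube2m the fitted WT change was larger in size than the D395A change, and the difference did not pass (adjusted p = 0.55 and 0.35).

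Within the m6A machinery the writer as a group had a median log2 change of -0.01 over 9 genes tested, against -0.00 for all genes. Its 1 WT-kept member of the 9, against 16.1% of all genes, was Wtap, which anchors METTL3 and METTL14 in nuclear speckles. It was at 247 and 269 untreated and 137 and 145 with dTAG in the D395A line, against 192 and 226 and then 189.7 and 236 in the WT line. The treated D395A libraries were the lowest of all 8 and the untreated ones the highest, with a change of -0.87 ± 0.06 (adjusted p = 1.1e-07) in D395A and 0.02 ± 0.06 in WT cells and a difference of -0.89 ± 0.09 (adjusted p = 2e-05). Mettl14 was lower (-0.29 ± 0.09, adjusted p = 0.025) and Rbm15b higher (0.42 ± 0.15, adjusted p = 0.036) in D395A cells, but neither difference from WT passed (adjusted p = 0.09 and 0.075). Virma, Zc3h13, Cbll1, Rbm15 and Mettl16 passed no test. Of 14 erasers and readers, 3 were lower and kept by WT, against 8.37% of all genes (1 in the CPM as deposited), and none was higher and kept, against 7.72%. These were Igf2bp3, a reader that stabilizes mRNAs in the cytoplasm, at 240.3 and 155 untreated and 147 and 91.9 with dTAG in the D395A line, against 207 and 204 and then 203 and 202 in the WT line, with a change of -0.73 ± 0.07 (adjusted p = 8.3e-07), Hnrnpc, whose binding depends on m6A through RNA structure (-0.39, WT -0.00), and Fmr1 (-0.41, WT -0.06, adjusted p of the difference 0.047). The nuclear reader Ythdc1 was lower in D395A cells (-0.29 ± 0.08, adjusted p = 0.01) with a difference that did not pass (adjusted p = 0.16). Among 6 tested genes of methyl donor synthesis, 1 was lower and kept by WT, against 8.37% of all genes. This was Mat2b, the regulatory subunit of methionine adenosyltransferase (-0.49, WT -0.00, adjusted p of the difference 0.008).

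The nuclear RNA decay machinery of the exosome, NEXT and PAXT gave no WT-kept gene among 21 tested, against 16.1% of all genes. Zfc3h1, the scaffold of PAXT, was lower (-0.25 ± 0.07, adjusted p = 0.0077), as was Srrt, a partner of the cap-binding complex (-0.51 ± 0.08, adjusted p = 0.00015), and the exosome subunit Exosc6 was higher (0.55 ± 0.16, adjusted p = 0.014). Srrt also had a WT change of -0.28 ± 0.08, and none of these differences passed (adjusted p = 0.18, 0.2 and 0.061).

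Nuclear and imprinted lncRNAs moved in both directions, with 2 of 20 tested higher and 5 lower among WT-kept genes, against 7.72% and 8.37% of all genes. The higher count is near that share. The maternally expressed RNAs of the Dlk1-Dio3 cluster on chromosome 12, Meg3, Rian and Mirg, all fell. Meg3 was at 3691 and 2687 untreated and 1535 and 1267 with dTAG in the D395A line, against 1655 and 2485 and then 1698 and 1943 in the WT line, and its change was -1.17 ± 0.09 (adjusted p = 1.6e-07). Rian, the next in the cluster, was at 5799 and 6661 untreated and 3065 and 3001 with dTAG in the D395A line, against 3654 and 4247 and then 3573 and 3813 in the WT line, and its change was -1.03 ± 0.11 (adjusted p = 2.4e-06). Mirg, which hosts miRNAs, changed by -0.80 ± 0.09 (adjusted p = 8.5e-06). In each of the 3 the untreated D395A libraries were the highest of all 8 and the treated ones were within or below the WT range. They lie in tandem on one strand, so their changes need not be independent. The opposite direction was seen for Kcnq1ot1, the paternally expressed antisense RNA of the Kcnq1 domain, at 1716 and 1955 untreated and 2803 and 2885 with dTAG in the D395A line, against 1677 and 2276 and then 1692 and 2139 in the WT line. Both treated D395A libraries were the highest of the 8 and the change was 0.63 ± 0.10 (adjusted p = 0.0001). Airn, its counterpart at Igf2r, rose in D395A cells by 0.47 ± 0.11 (adjusted p = 0.0022), and the difference missed the threshold (adjusted p = 0.051). H19 was low, at 2.60 and 3.63 untreated and 5.28 and 6.07 with dTAG in the D395A line, against 4.99 and 8.77 and then 5.51 and 6.11 in the WT line, with a change of 0.71 ± 0.18 (adjusted p = 0.0065) that ended within the WT range.

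On the X chromosome, Firre fell (-0.87 ± 0.09, adjusted p = 3.5e-06), from 966 and 812 to 515 and 452 scaled CPM, against 853 and 737 and then 762 and 763 in WT cells. Tsix, the antisense RNA of Xist, fell too (-0.59 ± 0.07, adjusted p = 1.8e-05), with a difference of -0.58 ± 0.10 (adjusted p = 0.0017). Xist without induction was at 129 and 81.5 untreated and 182 and 83.5 with dTAG in the D395A line, against 149.7 and 380.4 and then 188 and 403 in the WT line. Its log2 change was 0.26 ± 0.11 (adjusted p = 0.073) in D395A and 0.20 ± 0.11 in WT cells, so the changes differed by 0.06 ± 0.16 (adjusted p = 0.84) between lines, while Reps of one line differed by more than 2-fold in WT cells. Jpx rose in D395A cells (0.68 ± 0.15, adjusted p = 0.0025), with a difference that did not pass (adjusted p = 0.091). Among abundant nuclear RNAs, Malat1 (-0.13 in D395A, -0.00 in WT cells) and Neat1 (0.14, -0.09) passed no test.

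Pluripotency factors held the most lower genes of the lists examined. The lists were chosen with earlier results of these data known, so their shares beside those of all genes are descriptions. Of 24 tested, 18 were lower with dTAG in D395A cells (75% against 19% of all genes), 14 of them met the rule for WT-kept genes (8.37% of all genes did) and none was higher. The list's median log2 change was -0.52 in D395A and 0.01 in WT cells, against -0.00 in both for all genes. The share of genes that were lower and kept by WT depended on level, with 19.3% at 100 to 300 scaled CPM and 26.6% at 300 and over. The factors were not compared with genes of like level. Lifr, the receptor for the LIF in the medium, was at 213 and 211 untreated and 109 and 91.2 with dTAG in the D395A line, against 158 and 131 and then 157 and 106 in the WT line. Its change was -1.08 ± 0.09 (adjusted p = 3.8e-07), and its downstream transcription factor Stat3 changed by -0.53 ± 0.07 (adjusted p = 3e-05). Klf5, a Kruppel-like factor of the naive network, was at 112 and 142 untreated and 62.8 and 66.4 with dTAG in the D395A line, against 139 and 154 and then 133 and 155 in the WT line. The treated D395A pair stood below all other libraries and the change was -0.96 ± 0.09 (adjusted p = 1.8e-06). Tet2, a 5-methylcytosine dioxygenase, was at 484 and 508 untreated and 311 and 263 with dTAG in the D395A line, against 480.3 and 398 and then 471 and 382 in the WT line, with a change of -0.79 ± 0.08 (adjusted p = 2.3e-06). Its relative Tet1 changed by -0.56 ± 0.08 (adjusted p = 9e-05), and there the treated level, 1169 and 981, was near the 4 WT libraries at 1052 to 1152 and the untreated D395A level, 1604 and 1546, was above them.

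The nuclear receptors Nr5a2 (-0.94, WT -0.03, adjusted p of the difference 0.0026), Esrrb (-0.56, WT 0.00, adjusted p of the difference 0.0034) and Nr0b1 (-1.04, WT -0.13, adjusted p of the difference 0.032) fell as well. So did Tbx3 (-0.84, WT 0.15, adjusted p of the difference 0.0015), Zfp42 (-0.62, WT 0.02, adjusted p of the difference 0.0049), Klf2 (-0.62, WT 0.01, adjusted p of the difference 0.029), Dppa5a (-0.62, WT 0.18, adjusted p of the difference 0.023), Prdm14 (-0.39, WT 0.11, adjusted p of the difference 0.043) and, close to the threshold, Nanog (-0.28, WT 0.18, adjusted p of the difference 0.044). Pou5f1, the gene for OCT4, was at 52.9 and 67.0 untreated and 53.2 and 52.8 with dTAG in the D395A line, against 52.0 and 34.4 and then 53.4 and 31.1 in the WT line, and its change of -0.16 ± 0.10 (adjusted p = 0.2) did not pass. Klf4 had a change of 0.16 ± 0.12 (adjusted p = 0.32). Leaving out D395A Rep 1 turned the sign of Klf4 and leaving out Rep 2 that of Pou5f1. In the CPM as deposited 13 factors were lower and 9 kept by WT (median -0.39), and with no replicate block 6 were lower and 0 kept. Leaving out D395A Rep 2 left 9 lower and 6 kept.

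Genes of primed pluripotency and lineage entry moved both ways. Of 12 tested, 2 were higher and 4 lower in D395A cells (17.6% and 19% of all genes were), 1 and 3 of them kept by WT (7.72% and 8.37%), and the list median was -0.04. These counts are small and the higher ones are at the share of all genes. The de novo DNA methyltransferase Dnmt3a was higher (0.35, WT -0.09, adjusted p of the difference 0.024). Lef1, a Wnt effector, was lower (-0.97, WT -0.06, adjusted p of the difference 0.00085), as were the mesoderm factor T (-1.14, WT -0.22, adjusted p of the difference 0.017) and Pax6 (-1.13, WT -0.09, adjusted p of the difference 0.013). Pax6 was at 12.7 and 14.3 untreated and 7.34 and 4.26 with dTAG in the D395A line, against 1.48 and 2.67 and then 1.57 and 2.15 in the WT line, so that its fall in D395A cells began from a level above every WT library. Fgf5 (0.47) and Dnmt3b (-0.09) did not pass. The 13 genes of the 2-cell-like state in the table all had means below 1 CPM, and none was tested.

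Genes for SR splicing factors and the CLK kinases that phosphorylate them were lower as a group. Of 17 tested, 12 were lower in D395A cells (19% of all genes were), 6 of them kept by WT (8.37%), and none was higher, with a median log2 change of -0.34 in D395A and -0.07 in WT cells. Of genes at 100 to 300 scaled CPM 19.3% were lower and kept by WT, and of those at 300 and over 26.6%. The list was not compared with genes of like level. Tra2a was at 346 and 285 untreated and 220.3 and 208 with dTAG in the D395A line, against 292 and 370.0 and then 273 and 325 in the WT line. The 2 treated D395A libraries were the lowest of all 8, and the change was -0.55 ± 0.07 (adjusted p = 2.5e-05). Srsf3 was at 277 and 258 untreated and 200.1 and 185 with dTAG in the D395A line, against 235 and 211 and then 200.9 and 226 in the WT line, with a change of -0.47 ± 0.08 (adjusted p = 0.00016) and a difference of -0.41 ± 0.11 (adjusted p = 0.016). Clk1 (-0.48, WT -0.13, adjusted p of the difference 0.02), Srsf4 (-0.39, WT -0.07, adjusted p of the difference 0.031), Srsf6 (-0.42, WT -0.11, adjusted p of the difference 0.048) and Srsf11 (-0.34, WT -0.00, adjusted p of the difference 0.043) complete the group. Srsf5 and Srsf1 were lower in D395A cells by similar amounts (-0.47 and -0.43), and with WT changes of -0.22 and -0.16 their differences did not pass (adjusted p = 0.11 and 0.17). The lower direction held in the CPM as deposited, with 10 lower and a median of -0.20, but no SR gene was then kept by WT, nor without D395A Rep 1, and 1 was without D395A Rep 2 or WT Rep 2. With no replicate block 5 were lower and 0 kept.

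The list of stress and serine synthesis genes ran the other way, with 7 of 18 higher in D395A cells (17.6% of all genes were), 5 of them kept by WT (7.72%), 1 lower and a median of 0.27. Leaving out either D395A replicate left 2 higher. Phgdh, the first enzyme of serine synthesis, was at 32.6 and 43.2 untreated and 49.1 and 58.1 with dTAG in the D395A line, against 58.4 and 37.2 and then 58.9 and 40.5 in the WT line, and changed by 0.50 ± 0.08 (adjusted p = 0.00011), with the treated D395A pair inside the WT range. Aldh18a1, which makes the proline precursor, changed by 0.41 ± 0.08 (adjusted p = 0.00052), the mitochondrial serine hydroxymethyltransferase Shmt2 by 0.35 ± 0.10 (adjusted p = 0.011), the cystine transporter Slc7a11 by 0.89 ± 0.20 (adjusted p = 0.0026) and the lipoprotein receptor Vldlr by 0.63 ± 0.17 (adjusted p = 0.0083). Other amino acid genes of the list passed no test, with changes of 0.05 for Psat1 and -0.03 for Psph, which complete serine synthesis, -0.04 for the asparagine synthetase Asns and 0.04 for the transporter Slc7a5. Of the transcription factors that define the stress response, Atf4 had a change of -0.11 ± 0.10 (adjusted p = 0.43) and Ddit3 was lower (-0.59 ± 0.15, adjusted p = 0.0066). Atf3 and Atf5 had positive D395A changes, 0.65 and 0.45 (WT 0.03 and -0.17), and neither met the rule for WT-kept genes. WT Reps differed by more than 2-fold in Shmt2, Slc7a11 and Vldlr, and leaving out any 1 replicate of a line left the list with 0 or 1 WT-kept genes. Of 20 p53 targets, 3 were higher and 6 lower in D395A cells, against 17.6% and 19% of all genes (3 and 2 in the CPM as deposited, 0 and 2 without D395A Rep 1, 1 and 2 without Rep 2). Only 1 of the 20 was kept by WT, against 16.1% of all genes. This was Eda2r, which was lower (-0.45, WT -0.06, adjusted p of the difference 0.015). Cdkn1a had a change of -0.26 ± 0.15 (adjusted p = 0.21). Of 18 immediate early genes, 4 were higher, near the 17.6% of all genes, and 1 was lower, against 19%. None of the 18 was kept by WT, against 16.1% of all genes. Without either D395A replicate 0 were higher.

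Among 18 genes that silence retroelements, 3 were higher and 9 lower in D395A cells, against 17.6% and 19% of all genes, with 3 kept by WT (16.1% of all genes). Without D395A Rep 1 or Rep 2 none was higher and 3 or 2 were lower. In the CPM as deposited the split turned to 6 higher and 2 lower. Setdb1, the H3K9 methyltransferase, was higher (0.30, WT -0.04, adjusted p of the difference 0.018), and Mphosph8, a subunit of the HUSH complex (-0.59, WT 0.12, adjusted p of the difference 0.009), and Morc3 (-0.27, WT 0.03, adjusted p of the difference 0.026) were lower. Of 22 tested signalling ligands, receptors and inhibitors, 3 were lower and kept by WT, against 8.37% of all genes. These were Kit, the receptor of stem cell factor, at 165 and 158 untreated and 110.0 and 75.7 with dTAG in the D395A line, against 246 and 162 and then 227 and 172 in the WT line, with a change of -0.82 ± 0.10 (adjusted p = 1.1e-05), the FGF pathway inhibitor Spry2 (-0.78, WT -0.13, adjusted p of the difference 0.017) and the TGF-beta pathway inhibitor Smad7 (-0.40, WT 0.04, adjusted p of the difference 0.015). The 3 short structured RNAs tested, Rmrp, Rpph1 and Terc, passed no test.

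**Figure D3:**
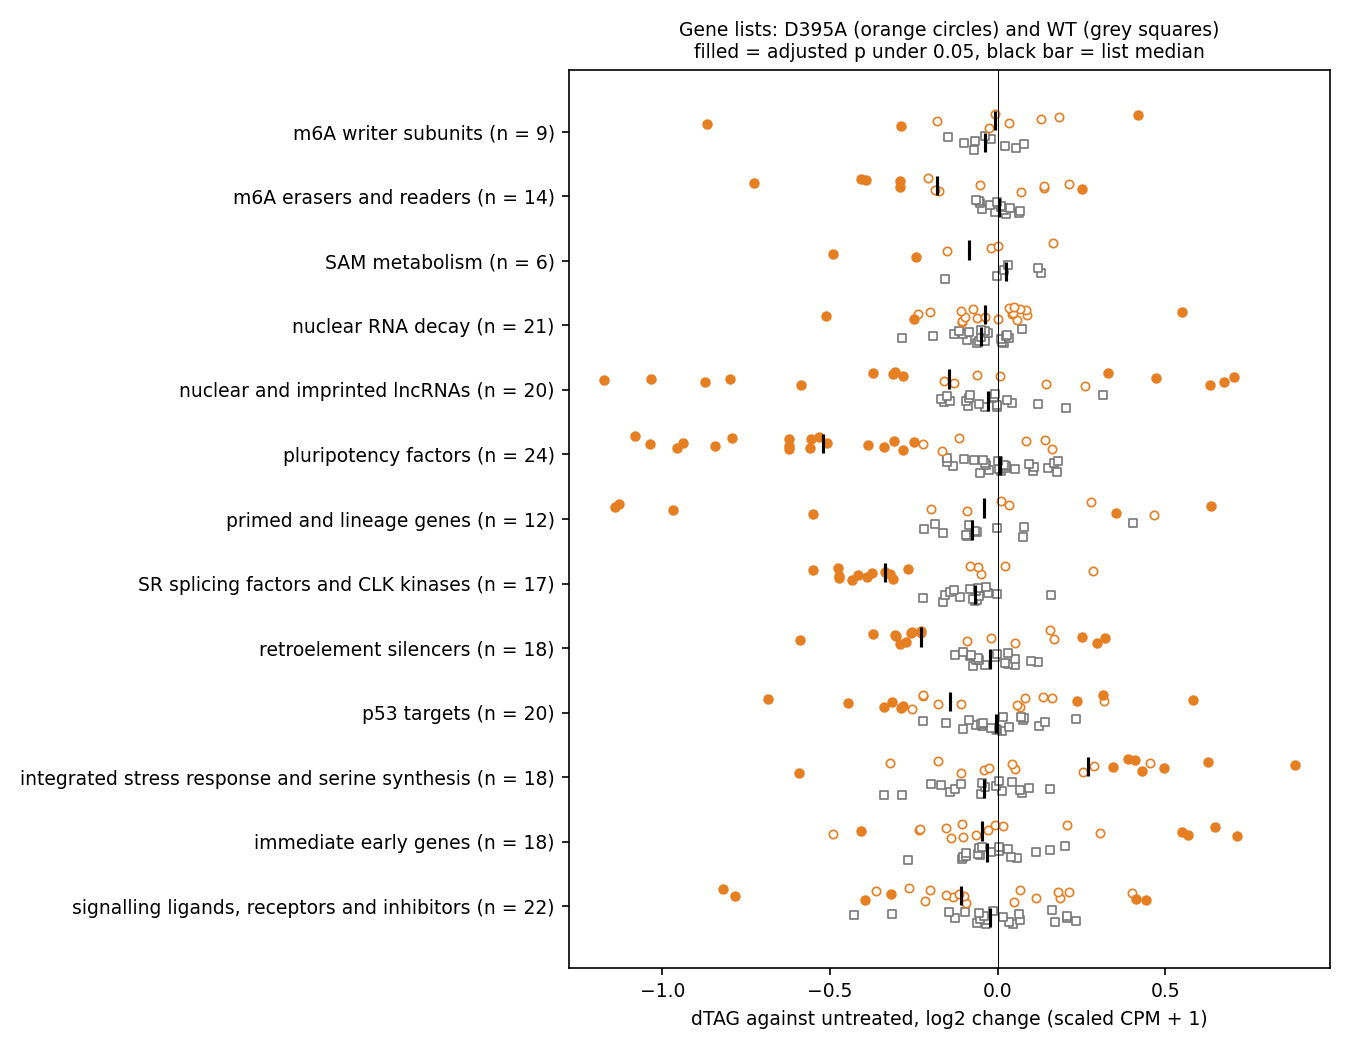
Log2 change with dTAG (x axis, scale of log2(scaled CPM + 1)) of every tested gene of 13 lists, as orange circles in the D395A line and grey squares in the WT line, filled where the adjusted p was under 0.05, with a black bar at each list's median. No grey square is filled, and the D395A medians of the pluripotency factors (-0.52) and SR factors (-0.34) lie left of 0 and that of the stress and serine list (0.27) right of it.

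Clones that took no part in choosing these genes were then compared. The XiO lines WT_1A and D395A_9F were made from the same H5 clone with the same transgenes, and in them only the X with the inducible Xist was detected. They were sequenced in the same 4 groups of 2 without Dox. In D395A_9F, 976 of 1011 tested higher genes moved up with dTAG (96.5%) and 709 passed (70.1%, where 16% of all 13448 genes tested there were called higher), and 1066 of 1111 lower genes moved down (95.9%) and 860 passed (77.4%, against 17.3%). Median log2 changes were 0.50 and -0.38. In WT_1A 534 of the higher genes (52.8%) moved up and 657 of the lower ones (59.1%) down, medians were 0.01 and -0.02, and none passed, as none of all genes did (500 at an unadjusted p under 0.05). The test of the difference between D395A_9F and WT_1A passed for 429 higher and 523 lower genes in the same direction, 42.4% and 47.1%, where 6.49% and 7.46% of all genes passed. With no replicate block 12 higher and 11 lower genes passed in D395A_9F.

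METTL3 degron cells without a transgene were sequenced as 4 clones, G4 and H1 with the tag at the N terminus of METTL3 and C3 and H5 with it at the C terminus, and H5 is the parent of the transgene lines. In them 897 of 1023 higher genes moved up with 26 h of dTAG (87.7%) and 384 passed (37.5%, against 8.2% of all genes), and 1063 of 1113 lower genes moved down (95.5%) and 637 passed (57.2%, against 12%). Medians were 0.45 and -0.52. Clone by clone, the median change of the higher genes was 0.41 in C3, 0.45 in H5, 0.51 in G4 and 0.41 in H1, and that of the lower genes -0.51, -0.60, -0.44 and -0.59. The libraries of the D395A and WT lines with Dox entered the fit that chose the genes, through its spread and blocks, and are no independent check. Mean paired log2 changes with dTAG kept the sign in 1025 of 1032 higher (99.3%) and 1116 of 1119 lower genes (99.7%) of the D395A line, with medians of 0.61 and -0.40, against 0.02 and -0.05 in the WT line, and 48% of all tested genes moved up in the D395A line.

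**Figure D4:**
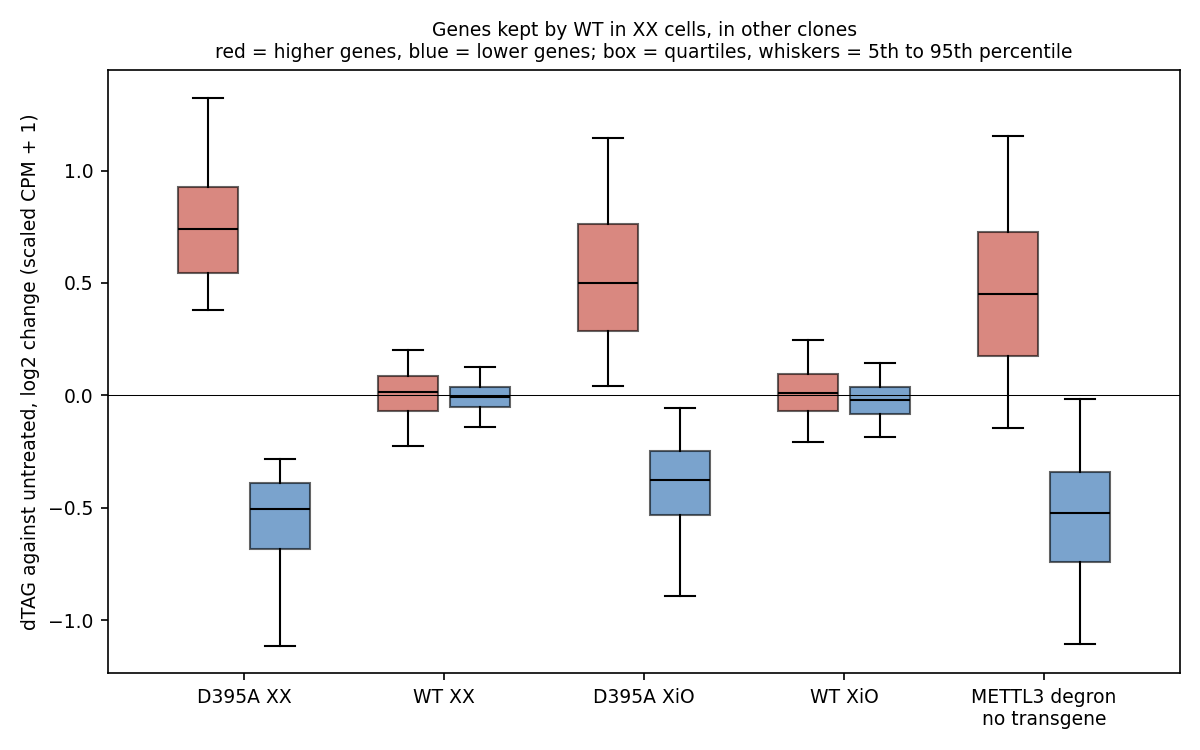
Log2 change with dTAG (y axis, scale of log2(scaled CPM + 1)) of the 1032 higher genes in red and the 1119 lower genes in blue, where tested, in the XX lines that chose them, the XiO lines and the METTL3 degron clones without a transgene. Boxes are quartiles and whiskers the 5th to 95th percentiles, and boxes of both WT lines straddle 0 while those of the other 3 lie apart, with medians of 0.74 and -0.51, 0.50 and -0.38, and 0.45 and -0.52.

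Of the 30 genes chosen by the rule, 29 could be tested in XiO cells. In D395A_9F the fitted change of 29 was in the same direction and 28 passed. The exception was Itpr2, with a fitted change of 0.80 there (adjusted p = 0.097). Its pairs disagreed, with -0.08 in Rep 1 and 1.67 in Rep 2 of D395A_9F, and -0.23 and 0.56 in WT_1A. Car10 rose by 3.57 in D395A_9F and 2.00 in degron cells, with -0.02 in WT_1A. In degron clones the fitted change of all 30 was in the same direction and 26 passed. The 4 that did not pass were Itpr2 (0.33), Adamts3 (0.42), 6030407O03Rik (0.38) and Erbb4 (-0.38). Single clones did not all follow the fitted sign. 6030407O03Rik had -0.06 in C3, -0.13 in H5, 0.53 in G4 and 1.16 in H1. Adamts3 had 0.96 in C3, 0.38 in H5, 0.42 in G4 and -0.10 in H1. Wtap fell by 0.57 in D395A_9F and by 0.66 in degron clones on the log2 scale (adjusted p = 7.7e-05 and 0.0074). Kcnq1ot1 had smaller changes, 0.18 in D395A_9F (adjusted p = 0.053) and 0.28 in degron clones (adjusted p = 0.35). H19 changed by -0.02 in D395A_9F (adjusted p = 0.93) and by 0.74 in degron clones (adjusted p = 0.087). Meg3 changed by -0.85 in D395A_9F (adjusted p = 0.0011) and by -0.76 in degron clones (adjusted p = 0.085). Single degron clones differed for Meg3, with -1.61 in C3, -1.44 in H5, -0.44 in G4 and 0.45 in H1. Dnah8 (-2.10 in C3, -2.08 in H5, -0.77 in G4 and -0.20 in H1) and Lef1 (-1.51 in C3, -1.58 in H5, -0.09 in G4 and 0.39 in H1) also had more negative changes in the C-terminal than in the N-terminal clones, while Car10 had 2.06 in C3, 2.17 in H5, 2.13 in G4 and 1.64 in H1. These contrasts between tags, noticed in the values, were not tested.

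The lists differed in how far they carried over. SR and CLK genes were lower for 15 of 17 in D395A_9F (median -0.36), where 17.3% of all genes were, and for 3 of 17 in degron clones (median -0.25), where 12% were. Pluripotency factors were lower for 10 of 24 in D395A_9F (median -0.35), against 17.3% of all genes. In degron clones 6 of 24 were lower and 2 higher (median -0.12), against 12% and 8.2% of all genes. Targets of p53 were lower for 10 of 19 in D395A_9F (median -0.35, WT_1A 0.14), against 17.3% of all genes. In degron clones 6 of 20 were lower and 1 higher (median -0.02), against 12% and 8.2% of all genes. Klf5, Nr5a2, Nr0b1, Stat3 and Lifr fell in D395A_1F, D395A_9F and degron clones, with changes of -0.80, -1.04, -0.89, -0.74 and -0.53 in degron clones. Tet1, lower in D395A_1F, had changes of -0.14 in D395A_9F and 0.50 in degron clones, neither of which passed, and Nanog of -0.14 and 0.11. Klf2 had changes of 0.21 and -0.05 there, neither of which passed. Dppa5a was lower in D395A_9F (-0.90, adjusted p = 0.033) but had a change of 0.21 in degron clones (adjusted p = 0.58). Klf4 was higher in degron clones by 1.29 (adjusted p = 0.00037). The stress and serine list had medians of 0.07 in D395A_9F and -0.03 in degron clones. In D395A_9F 2 of 17 were higher and 3 lower, where 16% and 17.3% of all genes were. In degron clones 0 of 18 were higher and 3 lower, where 8.2% and 12% of all genes were. Aldh18a1 was lower in degron clones (-0.43, adjusted p = 0.012). Differences between these settings were not tested.

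WT-kept genes were longer than genes at large. RefSeq exons on GRCm38.p6 were matched for 13287 of 13364 genes. The median span was 45.4 kb for higher, 50.1 kb for lower and 25.8 kb for all tested genes, and the median longest exon was 2.07, 1.66 and 1.46 kb. By span, 4.22% of genes under 5 kb were higher and 2.58% lower, against 16.8% and 13.4% of genes of 200 kb and over. Direction varied with level. The median mean level was 15.0 scaled CPM for higher and 103.7 for lower genes, against 22.6 for all, and of genes at 300 scaled CPM and over 26.6% were lower and 2.1% higher, while of genes under 5 scaled CPM 1.42% were lower and 7.68% higher. Median D395A changes ran from 0.17 in the lowest to -0.20 in the highest of 6 level bins, and WT medians from -0.0047 to 0.0044. Span and level also bear on how precisely a change was measured, and their part in the calls was not tested. The consensus GGACT, searched on the transcript strand of all exons, was absent from 3.98% of higher, 5.29% of lower and 7.78% of all tested genes, and its median density was 1.06, 0.963 and 1.02 per kb of exon. These are descriptions of sequence, not of methylation, which was not measured here.

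**Figure D5:**
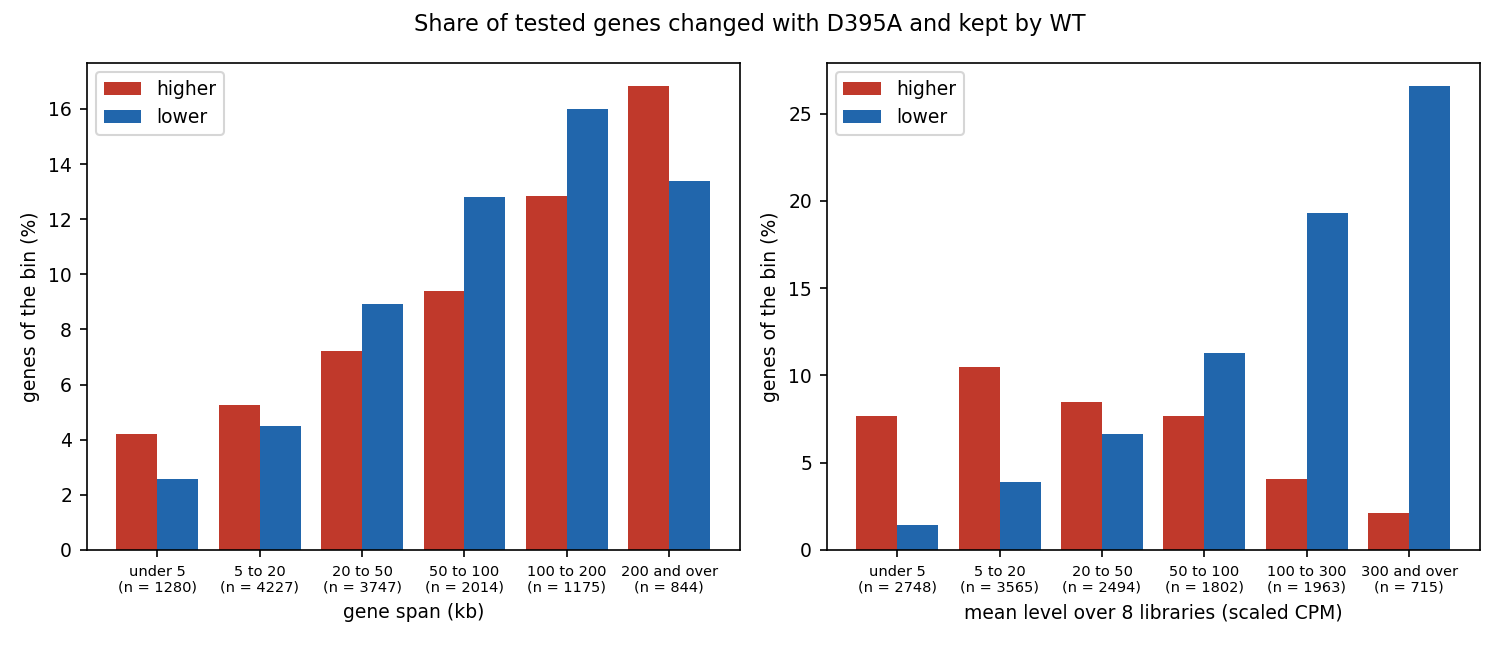
Share of tested genes (y axis, percent, from 0) that were higher (red) or lower (blue) with D395A and kept by WT, by gene span in kb on the left and by mean level over the 8 libraries in scaled CPM on the right, with the number of genes under each bin. Genes of 200 kb and over have shares of 16.8% and 13.4%, against 4.22% and 2.58% under 5 kb, and with level the lower share climbs to 26.6% while the higher share drops to 2.1%.

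The genes lay on all chromosomes. Shares of tested genes that were higher ran from 3.38% on chromosome 17 to 11.8% on chromosome 12, and shares that were lower from 5.34% on chromosome 8 to 11.3% on the X, leaving aside the Y, where the 1 gene tested, Erdr1 of the pseudoautosomal region, was lower (-0.38, WT -0.03). Of 12781 protein-coding genes 7.82% were higher and 8.4% lower, and of 438 lncRNAs 5.48% and 8.68%.

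Without Dox both X chromosomes were expressed in both lines, close to evenly, before and after dTAG. The allelic ratio, the fraction of allele-informative reads that came from the X carrying TetOn-Xist, could be compared for 410 X-linked genes, each with at least 10 such reads by the study's methods (the reads behind each ratio are not in the table, so no interval was computed). Its median was 0.474 and 0.470 in untreated and 0.472 and 0.471 in dTAG-treated D395A libraries (Rep 1 and Rep 2), and 0.471 and 0.486, then 0.476 and 0.479, in the WT line. All 8 lay between 0.470 and 0.486. With limma on the ratios 2 genes passed in D395A cells, 0 in WT cells (24 at an unadjusted p under 0.05) and 0 for the difference (29). The genes that passed, named after their values were seen, were Sytl5, with ratios of 0.724 and 0.582 untreated and 0.459 and 0.434 with dTAG (adjusted p = 0.024), and Mageb16, with 0.0530 and 0.0576 untreated and 0.0955 and 0.102 with dTAG (adjusted p = 0.036). In the WT line Sytl5 moved the same way, from 0.667 and 0.558 to 0.553 and 0.481, and so did Mageb16, from 0.116 and 0.0859 to 0.131 and 0.112. Neither call was made without the replicate block, on a logit scale or in the 8 libraries alone.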

How the data were processed

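ChrRNA-seq libraries of the XX transgene lines were used as deposited, in CPM per gene, reads of the gene relative to the library total. The authors discarded rRNA reads (bowtie2), aligned the rest with STAR to the mm10 genome with variant positions masked, kept unique alignments, counted stranded reads over whole transcripts with featureCounts and computed CPM with edgeR. The deposited allelic ratio is a fraction, reads of the X with the inducible Xist over reads of both X chromosomes, and the authors kept genes with at least 10 allele-informative reads. Only SNP-covering reads enter it, and its depth per gene is unknown.

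Whole reads were recovered from the CPM steps (100% of values within 0.1 read of a whole number). CPM were divided by median-ratio factors over autosomal genes, and log2(scaled CPM + 1) was fitted with limma 3.58.1 (lmFit, eBayes with trend) in R 4.3.3 for genes whose mean reached 1 CPM, over all 16 libraries of the table, those with Dox included, with each Rep of each line as a block. Library totals give the precision of single values: 1 read is worth 0.0326 to 0.101 CPM. A p was adjusted by Benjamini-Hochberg over all genes tested. Per the study's reporting summary the wells of 1 replicate were split from the same cells. In the files, deviations of untreated and dTAG libraries of the same Rep correlated at r = 0.61 (D395A) and 0.84 (WT) over 13364 genes, which are not independent replicates. Replicates are of 1 clone per transgene, so p-values measure the spread between these cultures. Libraries of 1 group differed by more than counting noise, and none was a duplicate.

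Named genes were the 15 with the highest and the 15 with the lowest fitted D395A change among WT-kept genes with a mean of at least 5 scaled CPM and both Rep pairs moving that way, then the 5 with the lowest p in the WT contrast. 1 of the 15 higher genes is not reported here. Members and lists were chosen with earlier results of these data known. Alternatives were the CPM as deposited, pseudocounts of 0.25 and 4, other filters, other blocks, the 8 libraries alone, edgeR 4.0.16 and DESeq2 1.42.0 on the recovered reads, and each replicate left out. Of 22556 symbols 99.4% were matched to RefSeq (GRCm38.p6), whose exons were read with pysam 0.24.0. 4 columns with no sample were not used. The code of the fit was tested on simulated reads that had a block for each Rep of each line built in. Such reads cannot test the pairing or the scaling.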

Additional observations from a re-analysis of the deposited data

Results flagged for a closer look

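The change with dTAG differed between the transgenes by the test of the difference itself. In XX cells it was more positive with D395A for 1050 genes and more negative for 1127 (limma, adjusted p under 0.05), and in XiO cells for 873 and 1003 genes.

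Among the 4 METTL3 degron clones, 1 named gene had a clone far from the others. Ak5 changed by 1.17 (log2) in clone G4, against 0.467, 0.455 and 0.449 in the other 3, all in the direction of the D395A line. Chance marks about 1 in 20 such groups, and all named genes, among them the 30 chosen by the rule, were screened.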

How the results depend on the processing

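Counts of calls rested on the scaling and the pairing, and less on the tool. With the CPM as deposited the D395A change passed for 3746 higher and 1269 lower genes, the difference for 1658 and 525 (76% more positive, against 48.2%), and the rule for WT-kept genes for 1634 and 520, of which 1552 were also in the scaled result. With no replicate block these numbers were 370 and 357, 2 and 3, and 2 and 3, and with 1 replicate block shared by both lines 585 and 604, 28 and 44, and 28 and 44. With all genes above 0 tested (20196), 738 genes had a more negative difference and 724 were lower and kept by WT. Leaving out 1 replicate of a line gave 1056 to 2537 higher and 1052 to 2729 lower genes with D395A, 375 to 912 and 363 to 871 for the difference, 373 to 831 and 361 to 852 WT-kept genes, and 0 to 1 higher and 0 lower with WT. The WT contrast called 0 genes also with edgeR and DESeq2 (303 and 127 at an unadjusted p under 0.05). WT-kept genes numbered 2177 with edgeR (2028 shared), 1822 with DESeq2 (1781 shared) and 2542 in the 8 libraries alone (2109 shared). In the other clones, with no replicate block 12 higher and 11 lower genes passed in D395A XiO cells and 150 and 285 in degron clones, and with the CPM as deposited 622 higher genes passed in degron clones. For allelic ratios the D395A count was 0 with no replicate block, 0 on the logit scale and 0 in the 8 libraries alone, and leaving out a replicate gave 0 to 3 genes for D395A and 0 to 1 for the difference. Of 97 genes (those named and all WT-kept list members), the difference lost its call for 82 with no replicate block, 66 with the shared block and 19 with the CPM as deposited. With a replicate left out, the remaining pair was assumed to vary like the other groups. The causes were not tested.

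Small changes turned sign. With the CPM as deposited these were Malat1 (D395A change 0.012, difference 0.0031), Mettl3 (D395A change 0.11) and Pou5f1 (difference 0.018). Leaving out a replicate moved the D395A change from -0.0099 to 0.34 for Klf4, from -0.069 to 0.022 for Mettl3 and from -0.34 to 0.0092 for Pou5f1. It moved the difference from -0.12 to 0.23 for Klf4, from -0.17 to 0.28 for Xist, from -0.038 to 0.13 for Mettl3, from -0.28 to 0.060 for Pou5f1 and from -0.035 to 0.38 for Hirip3.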
